A study of Homo sapiens with 4 samples.

Results

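Host genes carry small RNAs inside a longer transcript, and 107 of the 62696 gene rows were chosen here by their symbols alone. Of these, 32 are snoRNA hosts (symbols SNHG with a number, plus GAS5, EPB41L4A-AS1, ZFAS1 and DANCR) and 75 are microRNA hosts (symbols MIR...HG). All 32 snoRNA hosts had reads. Among the microRNA hosts 8 had no read in any library, namely MIR210HG, MIR3147HG, MIR34BHG, MIR4290HG, MIR4300HG, MIR4422HG, MIR493HG and MIR670HG. Of the rest, 30 snoRNA hosts and 41 microRNA hosts passed the filter (a mean of at least 10 normalized read counts over the libraries), while 2 and 26 fell under it.

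Total RNA was sequenced from OVCAR3, an established human line of high-grade serous ovarian carcinoma, in 4 libraries. In 3 of them (KD 1, 2 and 3) the cells carried a short hairpin RNA against the pseudogene transcript ANAPC1P2, and 1 came from wild-type cells (WT). All were grown in RPMI with 10% FBS. The labels name no hairpin sequence, no non-targeting hairpin and no separate cultures, so hairpin effects cannot be told apart from loss of ANAPC1P2. Each p-value therefore reflects only the scatter of these libraries, which may be technical in origin.

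Small nucleolar RNAs (snoRNAs) guide the modification of ribosomal RNA. Box C/D snoRNAs direct methylation of the ribose and H/ACA snoRNAs direct the change of uridine to pseudouridine. In animals most lie in introns and are trimmed out of the debranched lariat after splicing. The spliced exons of many snoRNA hosts enter the cytoplasm, are loaded with ribosomes and are removed by nonsense-mediated decay. MicroRNA hosts are cut in the nucleus by the microprocessor (DROSHA with DGCR8), which releases a hairpin that DICER1 turns into the mature microRNA.

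The microRNA hosts that fell include all 5 tested hosts with a let-7 seed among the RefSeq hairpins read here. Their mature sequences are shown together with the other seeds the results turn on. Capitals mark the seed (bases 2 to 8), through which a microRNA pairs with its targets. Sequences and positions are from RefSeq on GRCh38.p14.
let-7a-5p (MIR100HG, chr11:122146568-122146589, minus strand; a copy is in MIRLET7BHG): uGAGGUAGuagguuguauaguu
let-7b-5p (MIRLET7BHG, chr22:46113691-46113712, plus strand): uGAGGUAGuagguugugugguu
let-7c-5p (MIR99AHG, chr21:16539838-16539859, plus strand): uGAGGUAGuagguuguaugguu
let-7i-5p (MIRLET7IHG, chr12:62603691-62603712, plus strand): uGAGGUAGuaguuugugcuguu
miR-4500 (MIR4500HG): uGAGGUAGuaguuucuu
miR-99a-5p (MIR99AHG, chr21:16539101-16539122, plus strand): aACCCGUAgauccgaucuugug
miR-100-5p (MIR100HG, chr11:122152275-122152296, minus strand): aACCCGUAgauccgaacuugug
miR-181a-5p (MIR181A1HG and MIR181A2HG): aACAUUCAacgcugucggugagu
miR-31-5p (MIR31HG, chr9:21512158-21512178, minus strand): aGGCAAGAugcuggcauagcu

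SnoRNA hosts whose snoRNA row did not move with them are the second set for which sequence helps. SNHG3 contains a pair of H/ACA snoRNAs that are 93.2% identical (192 of 206 aligned positions), so reads from them could have been shared out between the copies. SNORD12C, a box C/D snoRNA, lies in an intron of ZFAS1. Positions and sequences are from GENCODE 29 on GRCh38, plus strand. Capitals mark the ACA box near the 3′ end, and in SNORD12C the C and D boxes.
SNORA73A (exon of SNHG3, chr1:28507366-28507571): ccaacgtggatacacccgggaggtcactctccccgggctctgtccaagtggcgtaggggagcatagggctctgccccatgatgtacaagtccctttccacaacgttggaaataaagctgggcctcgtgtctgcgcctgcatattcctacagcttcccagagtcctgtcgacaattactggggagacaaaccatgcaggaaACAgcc
SNORA73B (intron of SNHG3, chr1:28508559-28508762): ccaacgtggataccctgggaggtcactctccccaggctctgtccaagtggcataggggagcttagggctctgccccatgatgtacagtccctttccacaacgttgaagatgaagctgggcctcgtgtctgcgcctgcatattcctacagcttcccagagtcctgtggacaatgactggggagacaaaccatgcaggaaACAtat
SNORD12C (chr20:49278940-49279028): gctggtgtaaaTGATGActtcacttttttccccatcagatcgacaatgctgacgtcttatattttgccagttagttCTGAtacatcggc

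Between 42871815 and 56216398 reads were counted in the KD libraries and 27868718 in WT. A row of the target ANAPC1P2 had 0, 11 and 8 reads in KD 1, 2 and 3 and 14 in WT. All 3 KD libraries were lower there, at counts too few for a firm check. Another row with the same symbol had 0 reads in every library, WT included. The WT library stood apart. It held reads in 36832 genes, against 31014 to 32823 in the KD libraries. All 12 OVCAR3 markers were detected in every library, but they summed to 114592, 128463 and 120775 normalized counts in KD 1, 2 and 3 and to 567645 in WT, 6 of them lying below WT and 6 above it in the KD libraries. The 5 red cell markers summed to 3.79, 1.55 and 2.22 normalized counts in KD 1, 2 and 3 and to 14702 in WT, with HBA1, HBA2 and HBB at 0 in every KD library. The 7 leukocyte markers summed to 120.4, 92.5 and 95.6 in KD and to 926.3 in WT, with LYZ and FCGR3B at 0 in every KD library. The 7 neural markers summed to 2716, 2270.0 and 3315 in KD and 4435 in WT, and the 7 fibroblast markers to 509, 570.4 and 640.4 in KD and 1180.0 in WT, with 5 of each list below WT. Whether RNA of other cells in WT bears on the differences below was not tested, and with 1 WT library no result can be given without it. In bulk RNA, fewer cells of a type and less RNA per cell cannot be told apart.

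The snoRNA hosts split, and the microRNA hosts moved one way. Of 30 tested snoRNA hosts, 14 were higher and 7 lower in KD cells, while 9 were not called (limma, Benjamini-Hochberg adjusted p under 0.05). Of 41 tested microRNA hosts, 0 were higher, 23 were lower and 18 were not called. Among all 23344 genes tested 31.4% were higher and 36.3% lower. Among the 4446 tested long noncoding genes, the class to which most hosts belong, only 6.32% were higher and 53.4% lower. The lower share of the microRNA hosts, 56.1%, is near that of long noncoding genes at large, and the higher share of the snoRNA hosts, 46.7%, is near that of protein-coding genes, of which 45.9% were higher and 24.7% lower. Without any test, all 3 KD libraries lay above WT in 15 snoRNA hosts and 2 microRNA hosts and below WT in 13 and 32, with 2 and 7 on both sides. Among all tested genes all 3 lay above WT in 40.0% and below in 52.2%, and among long noncoding genes in 13.3% and 77.3%.

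The count of 0 higher microRNA hosts was also 0 at an unadjusted p under 0.05, 0 with edgeR and 0 with DESeq2. The median log2 difference, KD minus WT, was 0.19 over the tested snoRNA hosts (range -2.09 to 2.25) and -0.98 over the tested microRNA hosts (range -4.69 to 0.55). Both ends of that range are hosts that reached the filter through 1 group alone, MIR4280HG through WT and MIR378D2HG through KD. Without them 22 of 39 microRNA hosts were lower, and the range was -3.38 to 0.50 with the same median. Over all tested genes it was -0.28 and over all long noncoding genes -1.47. Library by library, the median of the snoRNA hosts was 0.27, 0.20 and 0.19 in KD 1, 2 and 3, each against WT, and that of the microRNA hosts was -0.98, -0.99 and -1.09. The gap between the classes was thus of like size in each KD library.

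**Figure D1:**
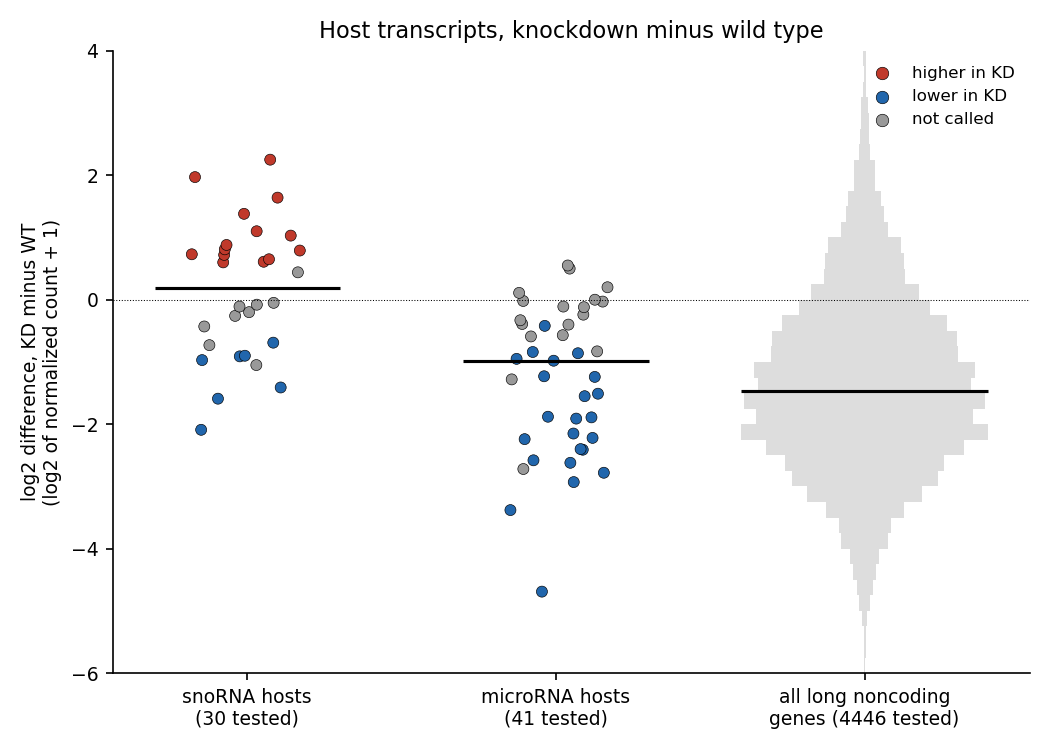
Log2 difference (KD minus WT, log2 of normalized count + 1) of each tested snoRNA host and microRNA host, 1 point per gene, coloured by its call, beside the distribution of all 4446 tested long noncoding genes, its width in proportion to the number of genes (the few beyond the axis are not drawn). Lines mark the medians, 0.19, -0.98 and -1.47; red points occur among the snoRNA hosts and among no microRNA hosts.

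Summed over all members, the reads of snoRNA hosts outnumbered those of microRNA hosts by 3.35, 2.98 and 3.80 to 1 in KD 1, 2 and 3 and by 0.961 to 1 in WT. This ratio is taken within a library and so does not depend on scaling. MIR99AHG alone gives much of the microRNA host sum, and without it the ratios were 6.50, 6.04 and 7.04 in KD and 2.22 in WT. The KD libraries lay above WT both ways. Per kilobase of exon, the tested snoRNA hosts had a median level of 284.2 normalized counts in KD cells and 163 in WT cells. The tested microRNA hosts had a median level of 36.2 in KD cells and 63.7 in WT cells.

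The scaling of the libraries moves all genes together. Relative to the deposited scaling, the median difference of all genes shifted by 0.23 with TMM, by 0.28 with median of ratios and by -0.56 with equal library totals. Relative to that median, the snoRNA hosts stood 0.47, 0.47, 0.48 and 0.47 higher with the deposited, TMM, median-of-ratios and equal-totals scalings, and the microRNA hosts stood at -0.70, -0.70, -0.70 and -0.71. The gap between classes was therefore nearly the same under each. The sign of the snoRNA host median was not: with equal library totals it turned to -0.37, with 6 hosts higher and 13 lower. With TMM, and likewise with median of ratios, 15 were higher and 6 lower. Among all called genes the share that was higher was 46.4% with the deposited scaling, 55.9% with TMM, 56.9% with median of ratios and 27.5% with equal totals. DANCR, SNHG16, SNHG29, SNHG6, SNHG8 and SNHG9 were higher, and SNHG14, SNHG17, SNHG20, SNHG3, SNHG4 and ZFAS1 lower, under all 4 scalings. So were 20 of the 23 lower microRNA hosts, the exceptions being MIR1915HG, MIR3667HG and MIRLET7A1HG.

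**Figure D2:**
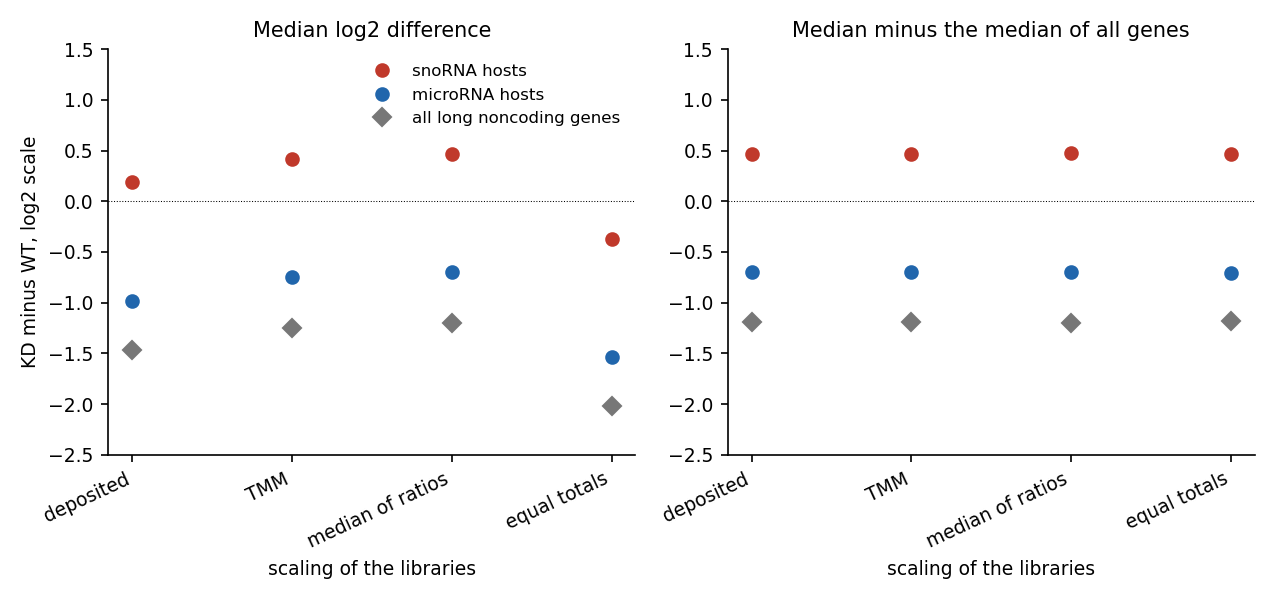
Median log2 difference, KD minus WT, of the tested snoRNA hosts, microRNA hosts and all long noncoding genes under 4 scalings of the libraries (left), and the same after subtracting the median of all tested genes (right). The left medians move up and down together, the snoRNA hosts lying between -0.37 and 0.47; on the right the snoRNA hosts stay at 0.47 to 0.48 and the microRNA hosts at -0.71 to -0.70.

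The largest rise among the snoRNA hosts was in SNHG9, a single-exon row of 551 bases at chr16:1964959-1965509 (plus strand) that holds an H/ACA snoRNA. On the same strand, 23.0% of its exonic bases overlap that snoRNA, SNORA78. Whether reads shared with SNORA78 bear on the SNHG9 counts was not tested. SNHG9 had 736.5, 726.6 and 762.6 normalized counts in KD 1, 2 and 3, against 155.5 in WT. All KD libraries were more than 4.5-fold above WT and close to each other, with a log2 difference of 2.25 ± 0.13 (SE) and a limma adjusted p of 6.57e-05. SNHG6, host of a box C/D snoRNA, had 670.1, 579.7 and 589.2 in KD and 155.5 in WT (log2 difference 1.97 ± 0.15, adjusted p = 0.000113). SNHG6 shares 29.3% of its exonic bases with MCMDC2 on the opposite strand, and the counting's strand setting was not given in the sources used here. SNHG8 (chr4:118278709-118279823, plus strand), host of an H/ACA snoRNA, had 3086, 2627 and 3021 in KD and 931.9 in WT (1.64 ± 0.12, adjusted p = 0.000103). Of its exonic bases, 14.2% overlap SNORA24 on the same strand. Per kilobase SNHG8 had the highest level of any tested snoRNA host in KD cells, 3154 normalized counts, against 1010.0 in WT.

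SNHG16 and SNHG29 were both higher and are abundant. SNHG16 (chr17:76557766-76565348, plus strand), host of 3 box C/D snoRNAs, had 10655, 10225 and 11157 normalized counts in KD and 4112 in WT (log2 difference 1.38 ± 0.10, adjusted p = 0.000104). Of its exonic bases, 30.6% overlap AC015802.6 on the opposite strand. SNHG29, which holds 3 box C/D snoRNAs, had 6564, 5837 and 6568 in KD and 2948 in WT (1.10 ± 0.11, adjusted p = 0.000287). In neither gene did the groups overlap, and the lowest KD library was nearly 2-fold above WT in SNHG29.

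DANCR, known for holding progenitor cells back from differentiation, had 2704, 2720 and 3057 normalized counts in KD cells, against 1635 in WT cells (log2 difference 0.79 ± 0.11, limma adjusted p = 0.0012). The box C/D host SNHG1 had 6891, 6299 and 6279 in KD and 3931 in WT (0.72 ± 0.10, adjusted p = 0.00129). GAS5, named for its build-up in growth-arrested cells and a textbook substrate of nonsense-mediated decay, had 9478, 8667 and 8679 in KD and 5838 in WT (0.61 ± 0.11, adjusted p = 0.00279). Every KD library lay above WT in these 3 genes. With equal library totals the difference shrank to 0.05 for GAS5 and to 0.16 for SNHG1, and neither was called, while DANCR kept its call. The other 6 higher hosts were SNHG7, SNHG15, SNHG18, SNHG25, SNHG30 and SNHG31, with log2 differences of 0.60 to 1.03, none of them called with equal totals. SNHG25 was not called without KD 2 or without KD 3, nor SNHG31 without KD 1 or without KD 2. Both calls were also lost with DESeq2, with KD reads thinned and with no filter. Of the exonic bases of SNHG25, 48.6% overlap RF00407 and SNORA50C on the same strand.

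**Figure D3:**
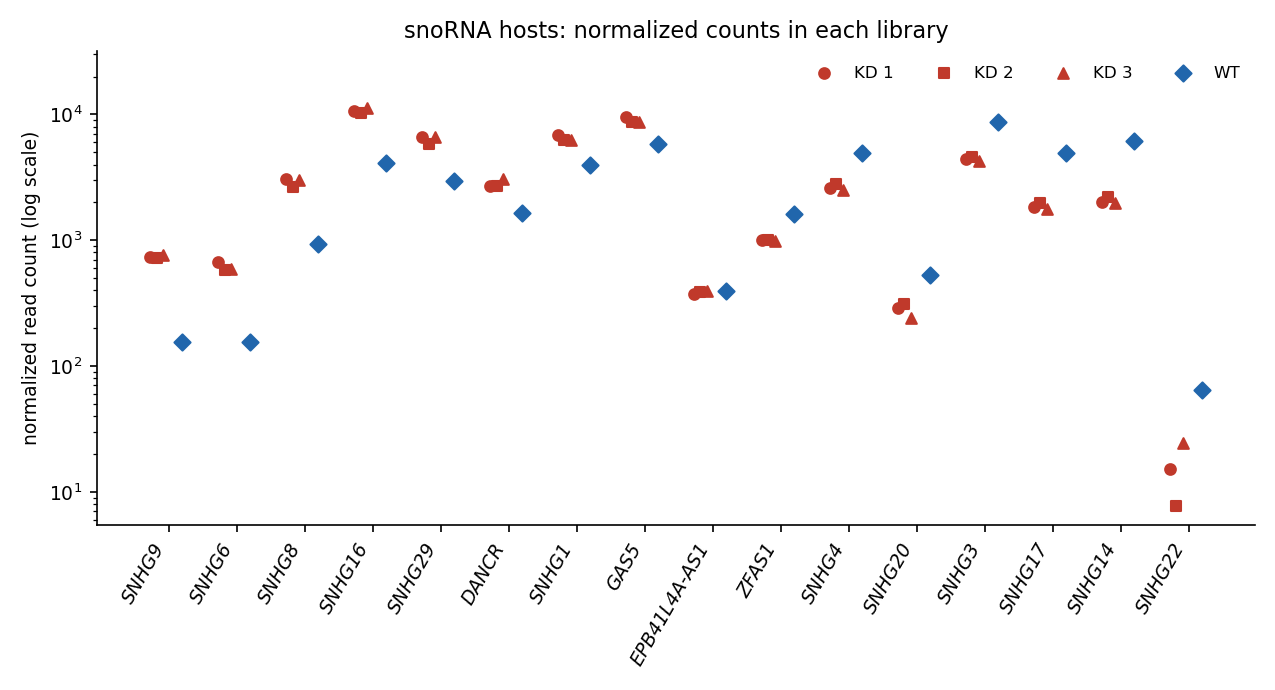
Normalized read counts (log scale) of the named snoRNA hosts in each library, ordered by their log2 difference, with KD 1, 2 and 3 in red and WT in blue. The KD points lie close together and above WT at the left (SNHG9 at 726.6 to 762.6, against 155.5) and below WT at the right (SNHG14 at 1972 to 2200, against 6198).

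The snoRNA hosts that fell include some of the most abundant. SNHG14 (chr15:24978583-25419462, plus strand), the long transcript through the imprinted Prader-Willi region, had 2004, 2200 and 1972 normalized counts in KD and 6198 in WT (log2 difference -1.59 ± 0.11, limma adjusted p = 7.87e-05). Its annotated repeats of SNORD115 and SNORD116 make up most of the 84 snoRNA rows it holds, of which 5 had any read and none passed the filter. SNHG17 (chr20:38420588-38435353, minus strand), host of H/ACA snoRNAs of the SNORA71 group, had 1835, 1965 and 1771 in KD and 4920.0 in WT (-1.41 ± 0.10, adjusted p = 9.86e-05). Both fell about as far in each KD library, with no overlap between groups.

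SNHG3 (chr1:28505980-28510892, plus strand) had 4433, 4585 and 4226 normalized counts in KD and 8655 in WT (log2 difference -0.97 ± 0.10, adjusted p = 0.000294). SNHG4 (chr5:139274102-139284899, plus strand) had 2580.0, 2805 and 2501 in KD and 4907 in WT (-0.90 ± 0.11, adjusted p = 0.000534). SNHG20, whose small RNA is a scaRNA, a Cajal body guide for spliceosomal RNA, had 291, 313.2 and 242.4 in KD and 526.5 in WT (-0.91 ± 0.19, adjusted p = 0.00664). These 3 fell by a like factor, and all KD libraries lay below WT. ZFAS1, transcribed from the start region of ZNFX1 on the opposite strand, had 997.1, 1009 and 977.2 in KD and 1606 in WT (-0.69 ± 0.10, adjusted p = 0.00143). SNHG22 had 15.2, 7.77 and 24.5 in KD and 64.4 in WT, a call (adjusted p = 0.0329) that was lost without KD 1 or without KD 2, with TMM (0.0531), with median of ratios (0.0571), with KD reads thinned and with no filter.

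EPB41L4A-AS1 had 373.4, 385.4 and 393.5 normalized counts in KD and 397.6 in WT. Its difference was -0.05 ± 0.14 with the deposited scaling (adjusted p = 0.764), but 0.18 with TMM, 0.23 with median of ratios and -0.61 with equal totals, where it was called. Of its exonic bases, 49.6% overlap EPB41L4A on the opposite strand. SNHG11 and SNHG26 had KD libraries on both sides of WT. The remaining uncalled snoRNA hosts were SNHG5, SNHG10, SNHG12, SNHG19, SNHG21 and SNHG32, with differences of -1.05 to 0.44.

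By the kind of snoRNA they hold, 6 of 11 tested H/ACA hosts were higher and 3 lower, with a median log2 difference of 0.60. Of 12 box C/D hosts 6 were higher and 2 lower, with a median of 0.58. The 4 scaRNA hosts (SNHG10, SNHG20, SNHG21 and SNHG22) had a median of -0.98, with 0 higher and 2 lower. Of these 2, the call of SNHG22 was lost under several alternatives, as given above. Among all tested genes 31.4% were higher and 36.3% lower. Among long noncoding genes 6.32% were higher and 53.4% lower, with a median of -1.47, so the lower share of the scaRNA hosts is near theirs. Hosts of both main families, H/ACA and box C/D, thus held rising and falling members. GAS5 stands in none of these counts, since its snoRNAs were not found in the annotation used.

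MicroRNA hosts fell over a wide range of levels. MIR99AHG (chr21:15928296-16645065, plus strand), host of miR-99a and let-7c, was the most abundant by counts, with 8554, 9665 and 7027 normalized counts in KD and 30751 in WT. Every KD library was at least 3-fold below WT, with a log2 difference of -1.88 ± 0.18 (SE) and a limma adjusted p of 0.000233. MIR31HG (chr9:21455642-21559669, minus strand) had 862.5, 888.2 and 790.4 in KD and 4478 in WT (-2.40 ± 0.11, adjusted p = 6.57e-05). Per kilobase MIR31HG had the highest level of the tested microRNA hosts, 1137 normalized counts in KD cells and 6011 in WT cells. On the opposite strand 40.7% of its exonic bases overlap the interferon pseudogene IFNWP19.

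The largest falls were in hosts of lower level. MIR4280HG had 0.948, 3.88 and 2.22 normalized counts in KD and 80.0 in WT (log2 difference -4.69); since it passed the filter through WT alone, it had to differ and its value is a description. MIR4307HG had 158.3, 170.2 and 80.0 in KD and 1358 in WT (-3.38 ± 0.42, adjusted p = 0.000695). MIR3171HG had 31.3, 63.7 and 32.2 in KD and 312.1 in WT (-2.93 ± 0.48, adjusted p = 0.00217). In each of these the lowest KD library was at least 1.9-fold below the highest KD library, a wider scatter than in the named snoRNA hosts other than SNHG22. MIR34AHG, host of the p53 target miR-34a, had 85.3, 77.7 and 46.7 in KD and 470.9 in WT (-2.78 ± 0.38, adjusted p = 0.00108). MIR29B2CHG, host of miR-29b and miR-29c, had 145, 148.4 and 121.2 in KD and 850.8 in WT (-2.62 ± 0.21, adjusted p = 0.000116).

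Among the hairpins read here, those in 5 tested hosts carry the let-7 seed GAGGUAG. All 5 hosts fell, as did 56.1% of all tested microRNA hosts and 53.4% of long noncoding genes. MIRLET7BHG (chr22:46053869-46113928, plus strand) had 332.7, 322.5 and 246.8 normalized counts in KD and 1121 in WT (log2 difference -1.91 ± 0.20, adjusted p = 0.000366). MIR100HG (chr11:122028327-122556721, minus strand), which also hosts miR-100 and miR-125b, had 141.2, 156.2 and 157.9 in KD and 433.2 in WT (-1.51 ± 0.19, adjusted p = 0.000804). MIRLET7IHG differed by -2.41 and MIR4500HG by -2.24, and MIR99AHG is given above. No KD library of any of the 5 reached the WT value. The pair that shares the seed ACCCGUA, MIR99AHG and MIR100HG, is thus among them. MIRLET7A1HG is not, since no hairpin was annotated within its span. It differed by -0.86, called lower with the deposited scaling but not with TMM or median of ratios. MIR4458HG overlaps the annotated MIR4458 on its strand, but that hairpin was not among the sequences read. Its seed was therefore not examined, and the count of 5 may be incomplete. MIR4458HG was not called (-0.12 ± 0.23, limma adjusted p = 0.67). Of the pair that shares ACAUUCA, MIR181A1HG had 383.9, 436.7 and 292.4 in KD and 866.3 in WT (-1.24 ± 0.23, adjusted p = 0.00384), while MIR181A2HG had 337.4, 261.1 and 389.1 in KD and 427.6 in WT and was not called (-0.40 ± 0.24, adjusted p = 0.176). Mature microRNAs were not measured in these libraries.

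Of the other abundant microRNA hosts, MIR924HG had 1677, 1668 and 1146 normalized counts in KD and 3454 in WT (log2 difference -1.23 ± 0.22). MIR23AHG, host of the miR-23a, miR-27a and miR-24-2 cluster, had 1008, 1072 and 943.8 in KD and 1986 in WT (-0.98 ± 0.12). MIR600HG had 365.9, 419.6 and 478 in KD and 1551 in WT (-1.89 ± 0.17). Their limma adjusted p-values were 0.00349, 0.000553 and 0.000199, and no KD library reached WT. MIR205HG, host of the epithelial microRNA miR-205, had 128, 159.3 and 185.7 in KD and 457.6 in WT (-1.55 ± 0.25, adjusted p = 0.00219). MIR1915HG had 654, 574.3 and 628.1 in KD and 828.6 in WT, a small fall (-0.42 ± 0.13, adjusted p = 0.0269) that was not called with TMM, with median of ratios or with DESeq2.

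Some hosts of much-studied microRNAs did not pass the test. MIR17HG, host of the growth-promoting miR-17-92 cluster, had 262.5, 253.3 and 237.9 normalized counts in KD and 218.8 in WT. Its difference was 0.20 ± 0.18 (adjusted p = 0.343) and turned to -0.36 with equal library totals. MIR222HG, host of miR-221 and miR-222, had 462.5, 580.5 and 514.7 in KD and 518.7 in WT, so the KD libraries lay on both sides of WT. Its difference was -0.00 ± 0.16 (adjusted p = 0.981) with the deposited scaling, 0.23 with TMM, 0.27 with median of ratios and, called, -0.57 with equal totals. MIR200CHG, host of the epithelial miR-200c and miR-141, had 55.0, 36.5 and 42.2 in KD and 44.4 in WT (-0.02 ± 0.41, adjusted p = 0.975), and 0.21 with TMM and 0.26 with median of ratios. MIR30DHG had 463.5, 486.5 and 421.3 in KD and 572 in WT (-0.33 ± 0.14, adjusted p = 0.0853). MIR155HG had 32.2, 24.9 and 28.9 in KD and 43.3 in WT (-0.59 ± 0.43, adjusted p = 0.254). The other hosts with KD libraries on both sides of WT were MIR3150BHG, MIR378D2HG, MIR503HG, MIR5689HG and MIR762HG.

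**Figure D4:**
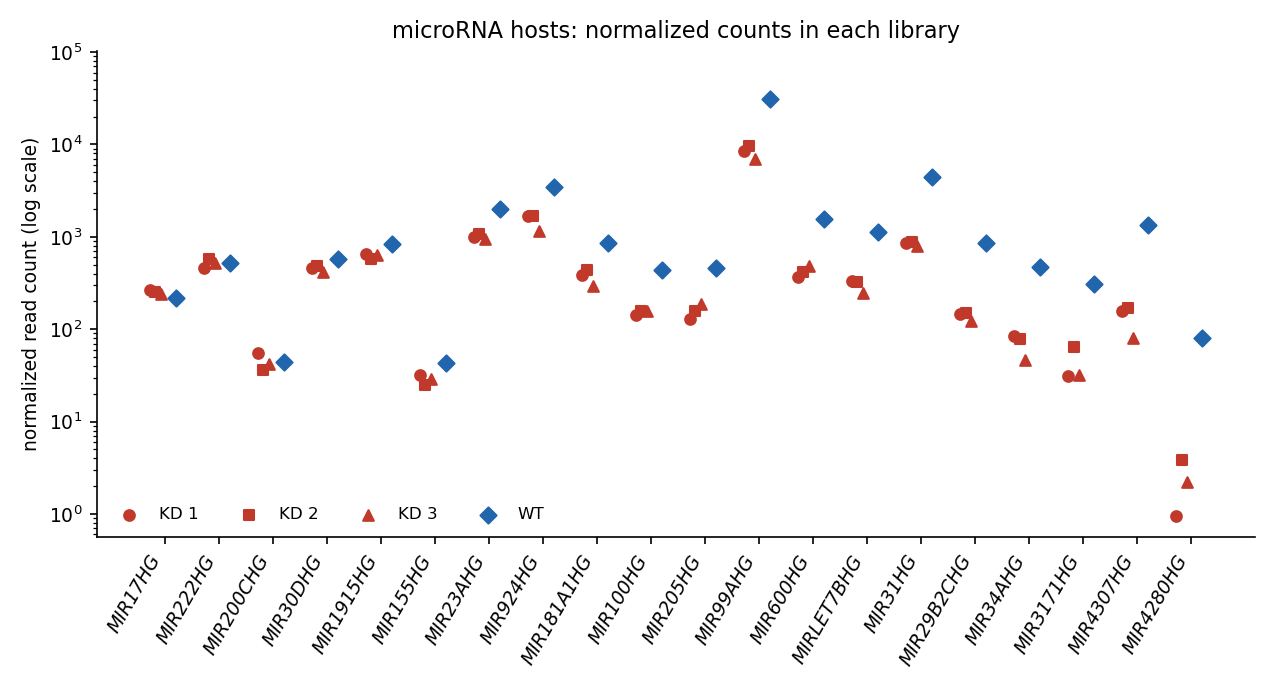
Normalized read counts (log scale) of the named tested microRNA hosts in each library, ordered by their log2 difference, with KD 1, 2 and 3 in red and WT in blue. From MIR1915HG rightwards every WT point lies above the KD points, as for MIR99AHG (7027 to 9665 in KD, 30751 in WT) and MIR31HG (790.4 to 888.2 in KD, 4478 in WT).

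Below the filter, reads were found in WT only for MIR2117HG, MIR223HG, MIR3663HG and MIR4432HG. MIR223HG, host of the myeloid microRNA miR-223, had 0 reads in every KD library and 18 in WT, which is at least 21.6-fold lower in KD when 3 reads are taken as the floor over the KD libraries together. The leukocyte host MIR142HG had 0, 7.77 and 4.45 normalized counts in KD and 10.0 in WT. These 2 hosts stand beside the leukocyte markers given above, and their link was not tested. Reads were found in KD only for MIR122HG, MIR217HG, MIR325HG, MIR3659HG, MIR3945HG, MIR548XHG and MIR7515HG. MIR22HG had 8 reads in each of the 4 libraries.

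The table also holds rows for small RNAs that lie inside the hosts. Of 155 snoRNA rows annotated inside a host on its strand, 20 had reads, and of 97 microRNA hairpin rows 25 had. Reads were found by position in the host as follows. Leaving out the repeat arrays of SNHG14 and MIR493HG, 0 of 34 snoRNA rows inside a host exon had a read, against 14 of 24 in introns. SNORA73A, inside an exon of the abundant SNHG3, is listed at 0 in all libraries. For reads that overlap several genes, the authors' counting rule was not given in the sources used here. With 150-base paired reads, such rows also take in unspliced host RNA, so they do not measure the mature small RNA alone. Of 11 tested snoRNA rows, 4 were higher, 1 was lower and 6 were not called, and of 5 tested hairpin rows 0 were higher and 4 were lower. Among all tested genes 31.4% were higher and 36.3% lower, so the share of snoRNA rows that were higher is near that of all genes. Of the called rows, SNORA74D and SNORD93 reached the filter through KD alone, and MIR31 and MIR4307 through WT alone.

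SNHG3 and its intronic snoRNA went in opposite directions. SNORA73B, of the U17 kind that acts in the cleavage of ribosomal RNA precursors, had 6922, 5781 and 7694 normalized counts in KD and 1217 in WT (log2 difference 2.47 ± 0.16, limma adjusted p = 7.69e-05). Within each library, SNORA73B had 1.56, 1.26 and 1.82 reads per read of SNHG3 in KD and 0.141 in WT, a ratio 11-fold higher in KD that no scaling can alter. SNHG4 showed the same pattern: SNORA74A, an H/ACA snoRNA in one of its introns, had 316.6, 118.9 and 227.9 in KD and 52.2 in WT (1.95 ± 0.51, adjusted p = 0.0145). Per read of SNHG4 that was 0.123, 0.0424 and 0.0911 in KD and 0.0106 in WT. SNORA74D, in another intron of SNHG4, had 53.1, 26.4 and 41.1 in KD and 6.66 in WT (log2 difference 2.37). It passed the filter through KD alone, so its value is a description. All 3 snoRNA rows were above WT in every KD library while both hosts were below it. On the same strand, part of the exonic bases of SNHG3 overlap RCC1 and SNORA73A, and part of those of SNHG4 overlap MATR3. Whether reads shared with these genes bear on the host counts or on the ratios per host read was not tested.

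In 2 further hosts that fell, the snoRNA row was not called with the deposited scaling. SNORA71B had 573.4, 372.2 and 458 normalized counts in KD and 483.2 in WT (log2 difference -0.07 ± 0.24, adjusted p = 0.808), although its host SNHG17 fell; with equal totals SNORA71B was called lower too (-0.63, adjusted p = 0.0465). SNORD12C had 124.2, 111.9 and 130.1 in KD and 124.4 in WT (-0.03 ± 0.24, adjusted p = 0.917), although ZFAS1 fell. Missing the threshold does not show that these rows were equal between groups. SNORD93 had 22.8, 24.1 and 24.5 in KD and 6.66 in WT, from 6 reads (log2 difference 1.69). It passed the filter through KD alone, so its value is a description. Its host SNHG26 was not called, and SNORD93 itself was not called with equal totals, edgeR or DESeq2, nor without KD 1 or without KD 2. SNORD104 in SNHG25 had 17.1, 18.7 and 24.5 in KD and 36.6 in WT (-0.85, adjusted p = 0.158), opposite in sign to its host, and was called lower with equal totals (-1.40, adjusted p = 0.0383).

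In microRNA hosts, 4 of the 5 tested hairpin rows fell. Of these, MIR31 and MIR4307 passed the filter through WT alone, so both had to differ and their values are descriptions. MIR31 had 3.79, 2.33 and 2.22 normalized counts in KD and 107.7 in WT (log2 difference -4.87), while MIR31HG fell by 2.40 on the same scale. Reads of MIR31 per read of MIR31HG were 0.0044, 0.00262 and 0.00281 in KD and 0.0241 in WT. SNORD39, a snoRNA row in the same host, had 34.1, 79.3 and 27.8 in KD and 391 in WT (-3.18, limma adjusted p = 0.00364). MIR181A2 had 22.8, 31.9 and 8.89 in KD and 233.2 in WT (-3.57 ± 0.70, adjusted p = 0.00475), although its host MIR181A2HG was not called. Reads of MIR181A2 per read of its host were 0.0674, 0.122 and 0.0229 in KD and 0.545 in WT. MIR4307 differed by -3.20 beside -3.38 for its host, and MIR924 by -2.18 beside -1.23. MIR99A, in MIR99AHG, was not called (-0.78, adjusted p = 0.353). With no filter on low genes, SNORA74A (adjusted p = 0.148), SNORA74D (0.0624), SNORD39 (0.0778), MIR181A2 (0.0807), MIR4307 (0.0824) and MIR924 (0.136) were not called, while SNORA73B and MIR31 were. MIR924 was also not called without KD 3 (adjusted p = 0.0535).

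**Figure D5:**
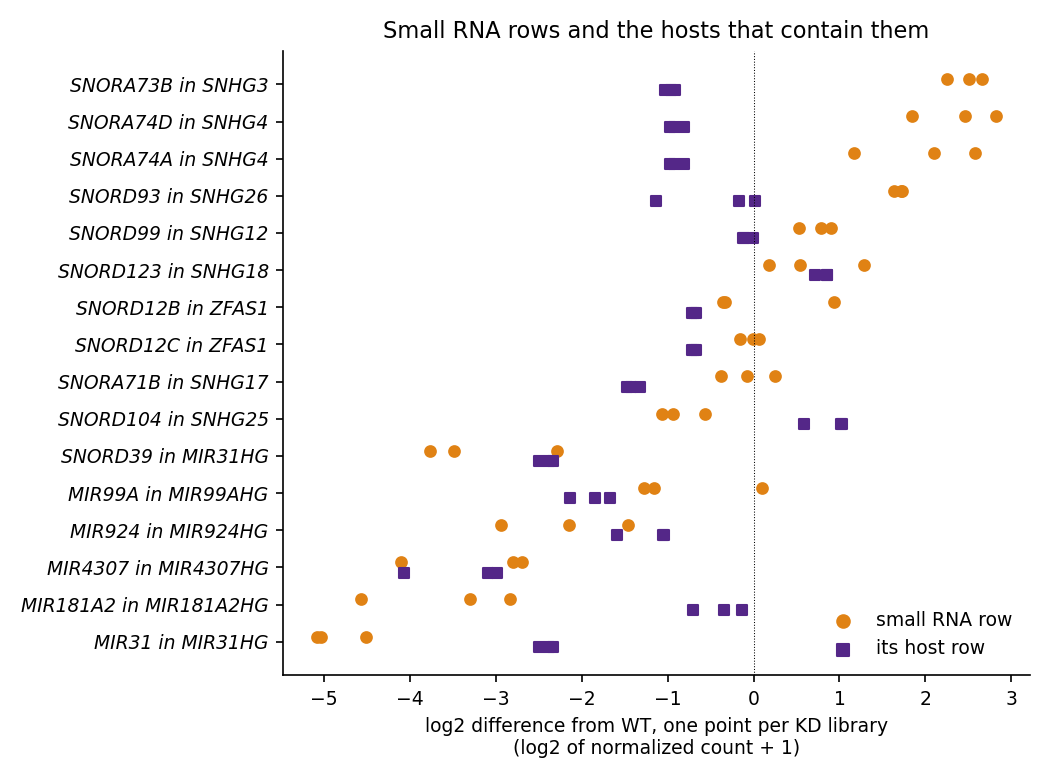
Log2 difference from WT (log2 of normalized count + 1) in each of the 3 KD libraries for the 16 tested small RNA rows (orange circles) and the hosts that contain them (purple squares). SNORA73B, SNORA74A and SNORA74D lie right of 0 while SNHG3 and SNHG4 lie left of it, and MIR181A2 and MIR31 lie farther left than their hosts.

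Length and level were set beside the class difference, since both classes differ from other noncoding genes in them. Among tested long noncoding genes the median log2 difference was -1.64 under 1000 exonic bases, -1.33 from 1000 to 2000, -1.26 from 2000 to 4000 and -1.38 from 4000 on. In the same 4 ranges the snoRNA hosts had medians of 1.26, 0.28, 0.28 and -0.90 (4, 6, 12 and 8 genes), and the microRNA hosts -0.40, -0.59, -1.23 and -1.70 (8, 5, 14 and 14 genes). The medians were lower in the longest range than in the shortest in both classes, and in each range the snoRNA hosts lay above the microRNA hosts. By mean level, the snoRNA hosts had medians of -0.89, 0.52 and 0.25 at 10 to 100, 100 to 1000 and over 1000 normalized counts. The microRNA hosts had -0.39, -1.37 and -1.55 there, so at the lowest level they lay above the 4 snoRNA hosts.

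Many snoRNA hosts are known to start with a terminal oligopyrimidine tract (5′TOP), which ties translation of a transcript to the mTOR pathway. The start was read as a C followed by at least 4 pyrimidines at the RefSeq gene start. A tract shifted from that base by a few positions is missed, so the shares and the split below depend on where RefSeq places the start. It was found in 7 of 28 snoRNA hosts with a sequence (25%), 2 of 56 microRNA hosts (3.57%), 4.04% of all 27305 genes and 65.5% of 58 ribosomal protein genes. The windows shown are 10 bases before to 20 bases from the start, on GRCh38.p14, with the tract in capitals. None is marked for SNHG8, where a C-led pyrimidine run crosses the start and so was not counted. Such a run also crosses the start in SNHG7 (higher). It lies shortly before the start in SNHG29 (higher) and SNHG14 (lower), and shortly after it in SNHG16, DANCR (both higher) and SNHG17 (lower). None of these was counted either, so the split below does not separate hosts with a 5′TOP from hosts without one.
SNHG4 (chr5:139274091-139274120, plus strand; lower): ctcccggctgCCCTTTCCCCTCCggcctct
ZFAS1 (chr20:49278632-49278661, plus strand; lower): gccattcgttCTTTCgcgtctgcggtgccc
SNHG12 (chr1:28581854-28581883, minus strand; not called): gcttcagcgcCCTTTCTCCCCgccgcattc
SNHG5 (chr6:85678714-85678743, minus strand; not called): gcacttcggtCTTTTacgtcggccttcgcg
SNHG8 (chr4:118278752-118278781, plus strand; higher): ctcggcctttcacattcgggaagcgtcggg
Of the 7 tested snoRNA hosts with such a start, 1 was higher (SNHG18), 2 lower and 4 not called, with a median log2 difference of -0.11. Of the 19 tested with none counted at the RefSeq start, 9 were higher, 5 lower and 5 not called, with a median of -0.05. SNHG6, SNHG9, SNHG15 and SNHG25 had no start sequence and stand in neither count. All of these were higher, and SNHG9 and SNHG6 rose most of all snoRNA hosts. Both medians thus lie below the 0.19 of all tested snoRNA hosts. The E-box CACGTG, searched in a RefSeq window that spans the start (it reads the same on both strands), was in 7.14% of snoRNA hosts, 3.57% of microRNA hosts and 7.43% of all genes.

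With the deposited scaling, the protein partners of snoRNAs rose together. All 19 listed genes for box C/D and H/ACA particle proteins and their assembly factors were then higher in KD cells, against 45.9% of all tested protein-coding genes. Calls under the other scalings were not examined for this list. The smallest rise, in NUFIP1 (0.47, limma adjusted p = 0.0372), is less than the shift of -0.56 that equal totals brought to the median of all genes. Their median log2 difference was 1.17, against 0.28 over protein-coding genes. NOP10, an H/ACA core protein, had 7111, 6461 and 6950.0 normalized counts in KD and 1213 in WT (2.49 ± 0.10). NOP58, a box C/D core protein, had 9075, 7323 and 8201 in KD and 1722 in WT (2.25 ± 0.14). FBL, the box C/D methyltransferase fibrillarin, had 33194, 30620.0 and 33242 in KD and 10618 in WT (1.61 ± 0.12). Their limma adjusted p-values were 6.57e-05, 6.86e-05 and 0.000112, and every KD library lay more than 2.8-fold above WT.

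Of 16 listed factors of nonsense-mediated decay, 9 were higher, 4 lower and 3 not called, with a median log2 difference of 0.33. These shares and this median are near those of all tested protein-coding genes (45.9% higher, 24.7% lower, median 0.28). MAGOH, a core protein of the exon junction complex, differed by 2.41 (adjusted p = 0.000101), and UPF3A, which links that complex to the UPF proteins, by -0.72 (adjusted p = 0.00245). Of 10 listed genes of microRNA processing, 1 was higher, 3 lower and 6 not called, with a median of 0.10. The lower count is near the 24.7% of protein-coding genes that were lower, and the higher count is under their 45.9%. TARBP2, the partner of DICER1, differed by 1.34 (adjusted p = 0.000361) and DGCR8 by -0.50 (adjusted p = 0.0225), while DROSHA (0.09, adjusted p = 0.431) and DICER1 (0.17, adjusted p = 0.169) were not called.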

How the data were processed

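Ribosomal RNA was depleted from total RNA and strand-marked libraries were sequenced, per the labels' protocols. STAR 2.7.11b, featureCounts 2.0.6 and DESeq2 with build hg38 are named, per the submitters' processing notes; sources used here give no annotation release, strand setting or rule for reads on several genes. The authors deposited 1 signal value per gene and library, a normalized read count. In each library 100% of the values were whole multiples of 1 step within 0.001 reads, so whole reads were recovered, with factors of 1.0551, 1.2869 and 0.8995 for KD 1, 2 and 3 and 0.9003 for WT.

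limma 3.58.1 (limma-trend, R 4.3.3) was run on log2(normalized count + 1) for 23344 genes averaging at least 10 normalized counts, two-sided, with Benjamini-Hochberg adjustment over all of them and a threshold of 0.05. Differences on this scale understate the change of low genes. The lone WT library is assumed to vary like KD. edgeR 4.0.16 and DESeq2 1.42.0 on the recovered reads, other scalings, pseudocounts, filters, thinned KD reads and leaving out each KD library were alternatives. Tested on simulated data, limma found 75 of 100 genes made to change 2-fold and 91 of 100 made to change 4-fold, with 22 false calls among 23344 genes. The changed genes averaged at least 50 normalized counts, were far fewer than those called in the data, and WT was given the spread of KD. These rates therefore need not hold for lower genes or for the real WT library. Floors cover counting error only.

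Positions, exonic lengths and hosted rows came from GENCODE 29 (GRCh38), and microRNA and start sequences from RefSeq (GRCh38.p14), which matched 84 of the 107 members by a start window and 58 by hairpins. Members and lists were chosen with earlier results of these data known. The named members are the 4 non-SNHG snoRNA hosts, the 10 highest tested of each class, up to 5 called with the largest rise and fall in each class, and a list of microRNA hosts with much-studied cargo.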

Additional observations from a re-analysis of the deposited data

How the results depend on the processing

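Every result rests on 1 WT library and on the spread of 3 KD libraries. No paired analysis was possible because the labels give the WT library no set number that could be matched to KD 1, 2 or 3. The snoRNA host median of 0.19 became 0.42 with TMM, 0.47 with median of ratios, 0.60 with a mean of at least 50, -0.37 with equal library totals and -0.06 with no filter. The microRNA host median of -0.98 became -0.75, -0.70, -1.24 and -1.54 under the first 4 of these and -1.13 with thinned KD reads. The gap between the medians, 1.17, became 1.84 with a mean of at least 50, 0.91 with no filter and 1.33 with thinned KD reads. With equal totals 6 snoRNA hosts were higher and 13 lower, and 4746 of all genes were higher, against 7329; with a mean of at least 50, 5086 were lower, against 8465. With no filter 1 microRNA host, MIR3681HG, was higher (8, 11 and 10 reads in KD, 1 in WT).

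Leaving out each KD library in turn gave a snoRNA host median of 0.17 to 0.21, a microRNA host median of -1.07 to -0.97 and a gap of 1.15 to 1.28. It gave 12 to 13 snoRNA hosts higher and 6 to 7 lower, and 0 microRNA hosts higher and 23 to 24 lower. Of 27 uncalled members the sign turned for 14 under at least 1 other scaling (not counting MIR222HG, whose difference rounds to 0), and of 44 called members for 0. Among the named members it turned for MIR200CHG (0.21 with TMM, 0.26 with median of ratios, -0.17 to 0.12 on leaving out 1 KD library), MIR222HG (0.23, 0.27, and -0.09 to 0.08 on leaving out 1 KD library), EPB41L4A-AS1 (0.18 and 0.23 with the same scalings) and MIR17HG (-0.36 with equal totals). Of 464 values of named members under 13 alternatives, 435 kept their direction and call. With no filter, calls were lost for MIR133A1HG, MIR181A1HG, MIR1915HG, MIR193BHG, MIR3171HG, MIR924HG, MIRLET7A1HG, SNHG20, SNHG22, SNHG25, SNHG30 and SNHG31. The cause of the other changes was not tested, apart from the shift common to all genes that each scaling brings.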
